A study of Rattus norvegicus with 18 samples.

Results

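The sirtuins Sirt2 to Sirt7 and 4 enzymes of NAD supply, Nampt, Nmnat1, Nmnat3 and Nmrk2, were followed in neonatal rat ventricular cardiomyocytes in which myosin II was blocked briefly. The 10 genes were taken by name (SIRT2, SIRT3, SIRT4, SIRT5, SIRT6, SIRT7, NAMPT, NMNAT1, NMNAT3 and NMRK2 in the table), and each had 1 row among the 28909 rows of the deposited expression table. No row named SIRT1 was found among the rows used here, so Sirt1, which the series title places on an axis with NFAT, is not analysed here. The cells came from 1-day-old wild-type Sprague-Dawley rats and were kept on collagen after a preplating step that removes faster-attaching cells. The tested libraries received 25 µM blebbistatin, which blocks the ATPase of myosin II motors, for 0.5 h (3 RNA libraries), and the others received its solvent DMSO (3 RNA libraries). The series text also gives 0.25 as the dose. The 12 chromatin and input samples of the series are not analysed here. Whether replicate libraries stem from different cultures is not stated in the labels, so the p-values reflect the library-to-library spread alone, which may be technical.

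Sirtuins are enzymes that remove acyl groups from lysines of other proteins and use up a molecule of NAD each time, so their activity depends on the NAD pool as well as on their own amount. Most NAD in heart muscle is rebuilt from nicotinamide. Nampt joins nicotinamide to a ribose phosphate in the rate-limiting step, and the Nmnat enzymes turn the resulting mononucleotide into NAD in separate compartments of the cell. Nmrk enzymes reach the same mononucleotide from nicotinamide riboside. A transcript level reads neither the activity of these enzymes nor the NAD pool.

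No change of any member was detected after blebbistatin. Of the 10, 9 passed the filter on low values and were tested, and 0 were called higher or lower by limma (moderated linear models on log2 values, Benjamini-Hochberg adjusted p under 0.05 over 15204 genes). At an unadjusted p under 0.05 the count was also 0. Of all genes tested, 0.0197% were called (3 genes), and 1.52% had an unadjusted p under 0.05. The blebbistatin and DMSO libraries overlapped for all 9 tested members, while they did not overlap for 6.13% of all genes tested. In DMSO replicate 1 the 6 sirtuins and Nmnat3 were at their lowest, by a small margin for Sirt2 and Sirt4, where 34.4% of all genes tested were also lowest, while Nmnat1 lay within the range of the other libraries and Nampt was highest. Values are given as CPM, each gene's share of its library on a scale summing to 1000000, so levels of different genes, whose lengths differ, are not compared.

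The start regions of 3 members are shown because these genes behaved differently across the libraries: Sirt3 and Nmnat3 were far lower in DMSO replicate 1, and Sirt2 moved little. Each window runs from 250 bases before to 50 bases after the gene's start in RefSeq (build GRCr8, not the authors' rn6), 5′ to 3′ on the gene's strand. Capitals mark CCAAT (the CCAAT box) and GGGCGG (the GC box), read on both strands, so that ATTGG and CCGCCC are their reverse complements. No 2 matches overlap in these windows. A start window was matched by name for 8 of the 10 members, and none was found for Sirt6 and Nampt in the set of windows used here.
Sirt3, chr1:205393552-205393851, minus strand: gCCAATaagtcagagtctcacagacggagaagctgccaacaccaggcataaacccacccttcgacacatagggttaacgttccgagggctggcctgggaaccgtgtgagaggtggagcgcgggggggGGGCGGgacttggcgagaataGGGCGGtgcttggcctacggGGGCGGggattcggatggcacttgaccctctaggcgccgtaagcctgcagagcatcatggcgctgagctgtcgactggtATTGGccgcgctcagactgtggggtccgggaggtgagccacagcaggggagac
Nmnat3, chr8:107771363-107771662, plus strand: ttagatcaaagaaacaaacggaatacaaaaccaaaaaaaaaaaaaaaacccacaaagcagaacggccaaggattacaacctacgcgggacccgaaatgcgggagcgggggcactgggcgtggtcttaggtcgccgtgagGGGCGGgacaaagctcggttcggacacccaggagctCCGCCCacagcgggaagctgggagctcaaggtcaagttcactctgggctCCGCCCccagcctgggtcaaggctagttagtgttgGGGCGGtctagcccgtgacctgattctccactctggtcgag
Sirt2, chr1:93181222-93181521, plus strand: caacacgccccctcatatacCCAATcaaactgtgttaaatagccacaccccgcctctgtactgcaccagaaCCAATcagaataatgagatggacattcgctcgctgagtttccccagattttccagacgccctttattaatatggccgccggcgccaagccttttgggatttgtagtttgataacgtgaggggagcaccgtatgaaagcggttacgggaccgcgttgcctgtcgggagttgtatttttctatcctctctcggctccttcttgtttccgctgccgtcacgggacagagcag
The Sirt3 window holds 3 GC boxes, at positions 128, 149 and 169 from its 5′ end, and CCAAT letters at 2 and 248. That of Nmnat3 holds 4 GC boxes (140, 176, 225 and 260) and no CCAAT. The Sirt2 window has CCAAT at 21 and 72 and no GC box. Of the other windows, those of Nmnat1, which was not lower in DMSO replicate 1, and Sirt7, which was, hold 1 GC box each. Those of Sirt4 and Sirt5, both lowest in that library, and of Nmrk2, which missed the filter, hold 0. Whether the GC box goes with the members' levels in DMSO replicate 1 was not tested. Of 33469 such windows in the table, 37.5% hold CCAAT and 33.1% hold the GC box. The E-box (CACGTG, in 6.42% of windows) and an ETS core (CCGGAAG, in 8.75%) were also searched on both strands, and neither is in these 3 windows. A match is a description of the letters only.

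Among the sirtuins outside mitochondria, Sirt2, a mainly cytosolic deacetylase that acts on tubulin, was at 58.5, 57.4 and 60.5 CPM in blebbistatin replicates 1 to 3, against 51.7, 66.8 and 61.1 CPM in DMSO replicates 1 to 3. The treated libraries lay close together and inside the range of the controls. On the log2 scale the difference was -0.06 ± 0.12 (SE), and the 95% interval ran from 0.79 to 1.17-fold. Sirt6, a chromatin-bound deacetylase of histone H3, was at 28.6, 24.6 and 27.9 CPM with blebbistatin, against 11.7, 26.0 and 27.6 CPM with DMSO. A single control library, DMSO replicate 1, was at less than the level of any other, and the other 5 spanned only 0.17 on the log2 scale. The log2 fold change of Sirt6 was 0.37 ± 0.29, and without that library it was 0.02 ± 0.13. Sirt7, a nucleolar member of the family linked to ribosomal RNA transcription, was at 7.28, 8.65 and 9.41 CPM with blebbistatin, against 4.91, 9.64 and 9.05 CPM with DMSO. The lowest value was again that of DMSO replicate 1, and the fold change took the other sign without it (0.11 ± 0.26 with all libraries and -0.15 ± 0.18 without).

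Among the mitochondrial sirtuins, Sirt3, the main deacetylase of the matrix, was at 7.75, 6.12 and 7.52 CPM with blebbistatin, against 3.32, 6.42 and 6.67 CPM with DMSO. DMSO replicate 1 was lowest and the other 5 libraries overlapped. On the log2 scale Sirt3 differed by 0.39 ± 0.27 with all libraries and by 0.12 ± 0.18 without DMSO replicate 1. Sirt5, which removes succinyl, malonyl and glutaryl groups, was at 45.5, 44.5 and 43.2 CPM in the treated libraries, against 29.1, 46.2 and 43.2 CPM in the controls. Leaving DMSO replicate 1 aside, its values spanned 0.11 on the log2 scale, the narrowest range of the 9 tested members over those 5 libraries. Its log2 fold change was 0.16 ± 0.16, and without DMSO replicate 1 it was -0.0040 ± 0.11, with a 95% interval of 0.83 to 1.19-fold. Sirt4, which acts on glutamate dehydrogenase and other matrix enzymes, was at 1.89, 1.60 and 3.39 CPM with blebbistatin, against 1.37, 2.10 and 2.22 CPM with DMSO. Both the highest and the second lowest of its 6 values were in treated libraries. Its log2 fold change of 0.18 ± 0.34 had a 95% interval of 0.66 to 1.96-fold.

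**Figure D1:**
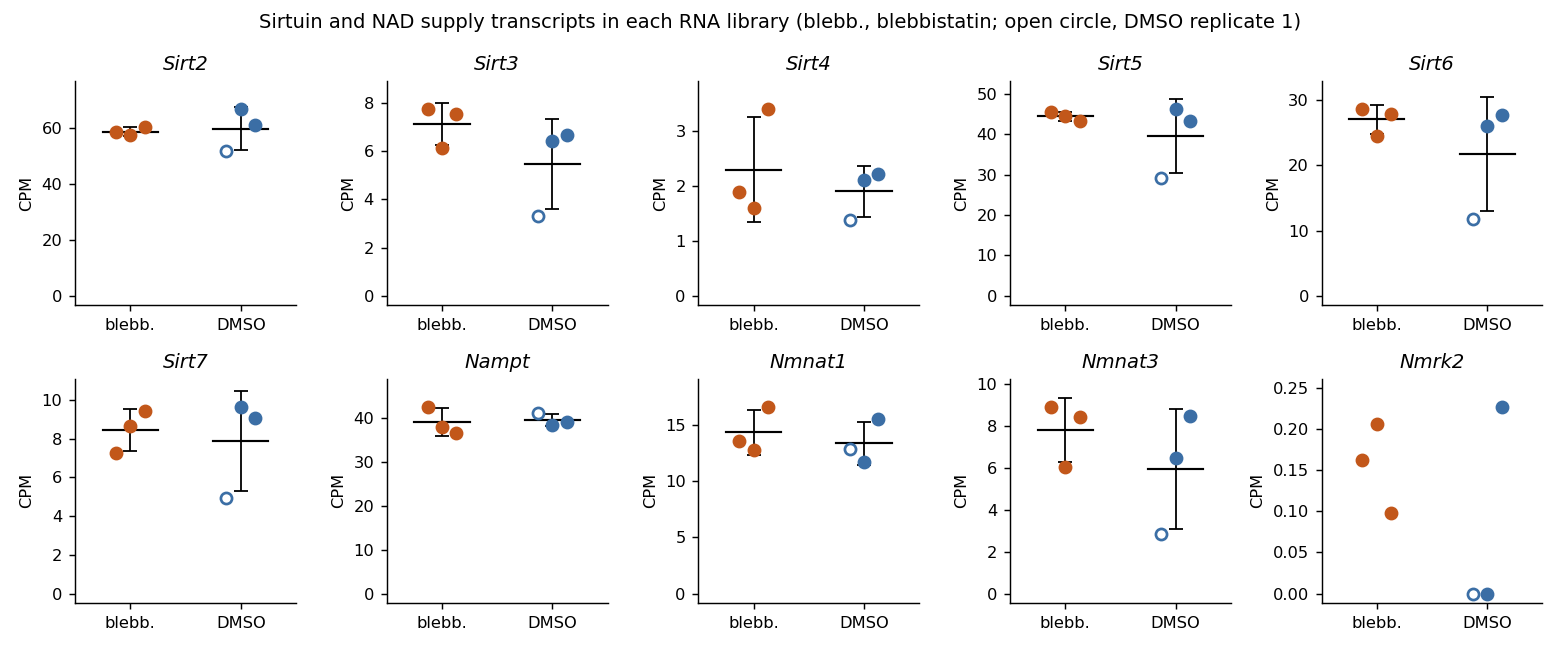
CPM of each of the 10 genes in the 3 blebbistatin (left, orange) and 3 DMSO (right, blue) libraries; points are libraries in replicate order, the open circle is DMSO replicate 1, and the horizontal line and bars are the mean ± SD (n = 3 each, not drawn for Nmrk2). For Sirt6 the open circle is at 11.7 CPM and the other 5 libraries lie between 24.6 and 28.6 CPM.

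In the supply arm, Nampt varied least across the libraries of the 3 enzyme genes tested. It was at 42.6, 38.1 and 36.6 CPM with blebbistatin, against 41.1, 38.5 and 39.0 CPM with DMSO, a mean of 39.1 ± 3.13 CPM against 39.6 ± 1.40 CPM (SD, n = 3 each). The groups overlapped fully. Its log2 fold change was -0.06 ± 0.13 (SE), and the 95% interval ran from 0.78 to 1.18-fold. Nampt was also the only member that was highest in DMSO replicate 1 once libraries were scaled for composition, by 0.21 on the log2 scale above the mean of the other 5.

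Nmnat1, the nuclear adenylyltransferase, was at 13.6, 12.8 and 16.6 CPM in treated libraries, against 12.9, 11.7 and 15.5 CPM in controls. Replicate 3 was the highest library of both groups, and DMSO replicate 1 lay within the range of the rest. The log2 fold change was 0.06 ± 0.17, with a 95% interval of 0.79 to 1.39-fold. Nmnat3, linked to mitochondria, was at 8.93, 6.06 and 8.45 CPM with blebbistatin, against 2.84, 6.49 and 8.50 CPM with DMSO. It had the widest gap of any member between DMSO replicate 1 and the rest (-1.26 on the log2 scale against their mean). Its log2 fold change of 0.47 ± 0.37 was the largest of the 9 tested members. Without DMSO replicate 1 it was 0.06 ± 0.22.

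Nmrk2, the muscle-enriched nicotinamide riboside kinase, which is known to rise in injured mouse hearts, was barely measured. It was at 0.162, 0.206 and 0.0973 CPM with blebbistatin, listed at 0 in DMSO replicates 1 and 2, and at 0.227 CPM in DMSO replicate 3. The 3rd control library was thus above all treated ones, and the groups overlapped. The gene missed the filter, which asked for 0.162 CPM or more in 3 libraries: 2 libraries reached it, and blebbistatin replicate 1 lay just under the unrounded limit. The lowest of its values above 0 was 0.0973 CPM, where the smallest step of the table is 0.0158 to 0.0168 CPM, and no fold change is given.

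**Figure D2:**
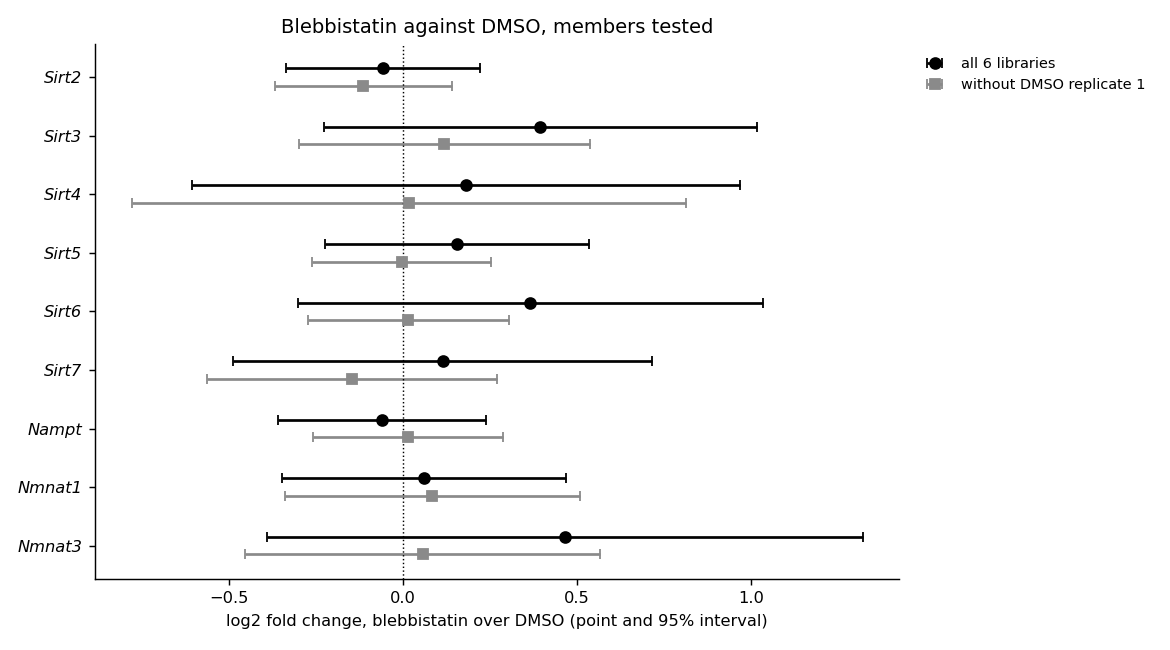
Log2 fold change of blebbistatin over DMSO for the 9 tested genes, with all 6 libraries (black circles) and without DMSO replicate 1 (grey squares); bars are 95% intervals from limma. All intervals include 0, and without that library the largest value in size is -0.15 (Sirt7).

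For all 9 tested members the limma adjusted p was 0.991, and without DMSO replicate 1 it was 1.00. Over the 9 the median log2 fold change was 0.16, with 7 positive and 2 negative values, against 0.0040 over all genes tested. Without DMSO replicate 1 the members' median was 0.02 with 6 positive values, and that of all genes was -0.00042. Without that library 0.0395% of all genes were called (6 genes), and again 0 members. For Sirt3, Sirt6 and Nmnat3, the 3 members with the largest fold changes, the 95% intervals with all libraries reached 2.02, 2.05 and 2.50-fold. Without DMSO replicate 1 they ended at 1.45, 1.24 and 1.48-fold. That library was singled out by these same values and only 2 controls remain, so the narrower intervals may understate the spread.

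DMSO replicate 1 stood apart across the whole table. It was at 77.4 on the first principal component (42.0% of the variance), against -34.6 to 3.04 for the other 5 libraries. It was the lowest of the 6 libraries for 34.4% of all genes tested and the highest for 33.7%. Cardiomyocyte genes went both ways in it: Nppa, a natriuretic peptide gene, was at 495 CPM there against 2785 to 5326 CPM elsewhere, while Myh6 and Myh7, the cardiac myosin heavy chains, were at 2203 against 1590 to 1644 CPM and at 19644 against 11154 to 13105 CPM. The summed level of 9 macrophage and leukocyte markers was 160 to 181 CPM with blebbistatin and 87.3 to 176 CPM with DMSO, lowest in DMSO replicate 1. Of red blood cell markers 3 were measured, at 26.3 to 31.1 CPM with blebbistatin and 28.5 to 72.0 CPM with DMSO, highest in DMSO replicate 1. The 9 measured cardiomyocyte markers summed to 22047 to 24092 CPM with blebbistatin and 22311 to 27536 CPM with DMSO, highest in DMSO replicate 1. Myh7 alone made up 19644 CPM of that highest sum. When each marker counted equally on the log2 scale, DMSO replicate 1 was instead lower than the rest, with an average gap of -0.53. That average includes the low Nppa, so neither figure stands for every cardiomyocyte marker. All 8 fibroblast markers were measured too, at 33522 to 38003 CPM and 33468 to 38944 CPM, so fibroblast transcripts were abundant in cultures labelled as cardiomyocytes. The 5 endothelial markers summed to 69.9 to 82.0 and 72.2 to 94.2 CPM, and the 5 smooth muscle and pericyte markers to 3584 to 3826 and 3120 to 3909 CPM. DMSO replicate 1 was highest for the endothelial sum and lowest for the smooth muscle and pericyte sum. No measured marker of any list was at 0 in all libraries, and the part of other cells in the members' values was not tested. In bulk RNA, fewer cells of a type and less RNA per cell cannot be told apart.

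Read against that, 7 of the 9 tested members (77.8%) were lowest in DMSO replicate 1, where 34.4% of all genes were. They were the 6 sirtuins and Nmnat3. Their distance from the mean of the other 5 libraries was -0.10 for Sirt2, -0.48 for Sirt5, -0.50 for Sirt4, -0.70 for Sirt7, -0.90 for Sirt3, -1.06 for Sirt6 and -1.26 for Nmnat3 on the log2 scale. Of the 9, 5 were lower by 0.5 or more, where 22.5% of all genes were. As a ratio of scaled values, DMSO replicate 1 was at 0.479 of the other libraries' geometric mean for Sirt6 and at 0.931 for Sirt2. Sirt2 lay only 0.03 below the next library and Sirt4 only 0.11, both less than the span of the other 5 libraries (0.22 and 1.02). Sirt3, Sirt5, Sirt6 and Nmnat3 lay 0.43 to 0.96 below the next library, more than the other 5 spanned for Sirt3 (0.29), Sirt5 (0.11), Sirt6 (0.17) and Nmnat3 (0.51). Sirt7 lay 0.41 below the next library, close to the span of 0.43 over the other 5. These values describe 1 library and carry no test.

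**Figure D3:**
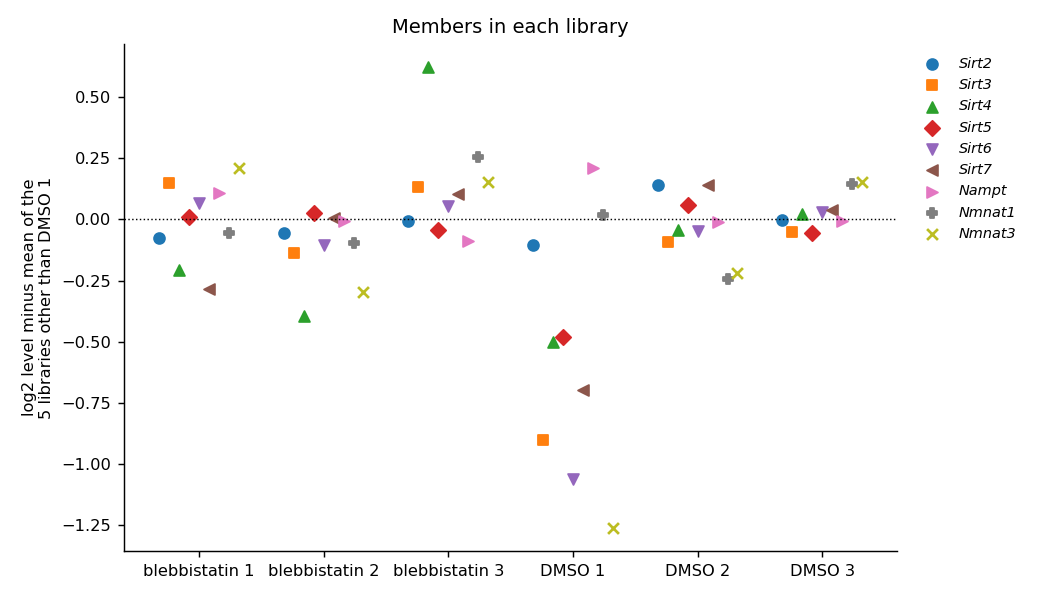
Log2 level of each tested gene in each library, after scaling and relative to the mean of the 5 libraries other than DMSO replicate 1 (labelled DMSO 1); each symbol is a gene. In DMSO 1 the values run from -1.26 (Nmnat3) to 0.21 (Nampt), and in the other libraries from -0.39 to 0.62, both for Sirt4.

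Patterns over the 6 libraries were compared by the root mean square difference of centred log2 levels. A small value means a like pattern or genes that both vary little, because the measure is not divided by a gene's own spread. That spread (SD of log2 levels) was 0.106 for Nampt and 0.557 for Nmnat3, so values are not ranked between members. Within the members, Sirt3 and Sirt6 were nearest to each other (0.0855), and Nmnat3 was nearest to Sirt6 (0.155). For Sirt4 the nearest member was Sirt7 (0.289). Over all tested genes with a mean of at least 1 CPM, the nearest gene was Anapc11 for Sirt6 (0.0393), Spsb4 for Sirt3 (0.0501), Msra for Nmnat3 (0.0562), Mbd3 for Nmnat1 (0.0434) and Tm7sf3 for Sirt2 (0.0210). For Nampt it was RGD1311946 (0.0170), for Sirt5 MGC116121 (0.0301), for Sirt7 Drc3 (0.0688) and for Sirt4 AABR07053500.1 (0.0928). With 6 libraries, 1 of them apart from the rest, and 13082 genes to choose from for each member, a near pattern is a description only.

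No gene of the wider NAD pathway passed the test. Of 58 genes in 6 lists by role, the members included, 57 were in the table and 49 were tested. Limma called 0 of them higher and 0 lower, and 0 had an unadjusted p under 0.05. Of the 49, 28 had a positive and 21 a negative fold change, with a median of 0.01. The groups did not overlap for 3 of the 49, or 6.12%, beside 6.13% of all genes tested.

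In the salvage list, 0 of 7 tested genes passed. Nmrk1, the riboside kinase found in most tissues, averaged 1.85 ± 0.199 CPM with blebbistatin and 2.09 ± 0.400 CPM with DMSO (SD, n = 3 each), a log2 difference of -0.19 ± 0.25. Of the 11 genes of the routes from nicotinic acid and tryptophan to NAD, 4 passed the filter. Tdo2, Ido1, Kynu and Haao, enzymes of the tryptophan route, and Acmsd, which diverts an intermediate of that route away from NAD, were listed at 0 in every library. Ido2 reached at most 0.206 CPM and Kmo at most 0.126 CPM, both in blebbistatin replicate 2. Afmid, the kynurenine formamidase, had a log2 fold change of 0.59 ± 0.35, and Nadsyn1, which amidates the last intermediate from nicotinic acid, one of 0.29 ± 0.19. Neither passed the test.

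Among the 7 kinases, carriers and NAD hydrolases, the largest difference in size was that of Slc12a8, reported in mouse as a nicotinamide mononucleotide carrier (-0.25 ± 0.36). Slc25a51, the mitochondrial NAD carrier, averaged 28.4 ± 0.751 CPM with blebbistatin and 29.7 ± 2.31 CPM with DMSO. Of 16 tested NAD consumers and clearance enzymes, 8 were positive and 8 negative, and 3 had groups that did not overlap. Parp16, a mono-ADP-ribosyltransferase of the endoplasmic reticulum, was at 7.79, 7.15 and 7.96 CPM with blebbistatin, against 4.27, 5.75 and 6.61 CPM with DMSO. All treated libraries lay above all controls, and the fold change was 0.44 ± 0.19 on the log2 scale (limma adjusted p = 0.991). Parp9, an interferon-responsive family member, was at 34.2, 31.5 and 32.1 CPM, against 23.3, 30.8 and 25.9 CPM with DMSO (0.26 ± 0.13). Cd38, an ectoenzyme that breaks down NAD, went the other way, at 37.3, 35.9 and 37.8 CPM with blebbistatin, against 42.0, 45.2 and 38.2 CPM with DMSO (-0.21 ± 0.13). None of the 3 passed the test, and without DMSO replicate 1 their values were 0.31, 0.21 and -0.16. Among the 9 genes of NAD redox exchange, Mdh1 and Ldhb, a malate and a lactate dehydrogenase, had log2 fold changes of 0.14 ± 0.14 and 0.17 ± 0.18, and 0.04 and 0.01 without DMSO replicate 1.

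**Figure D4:**
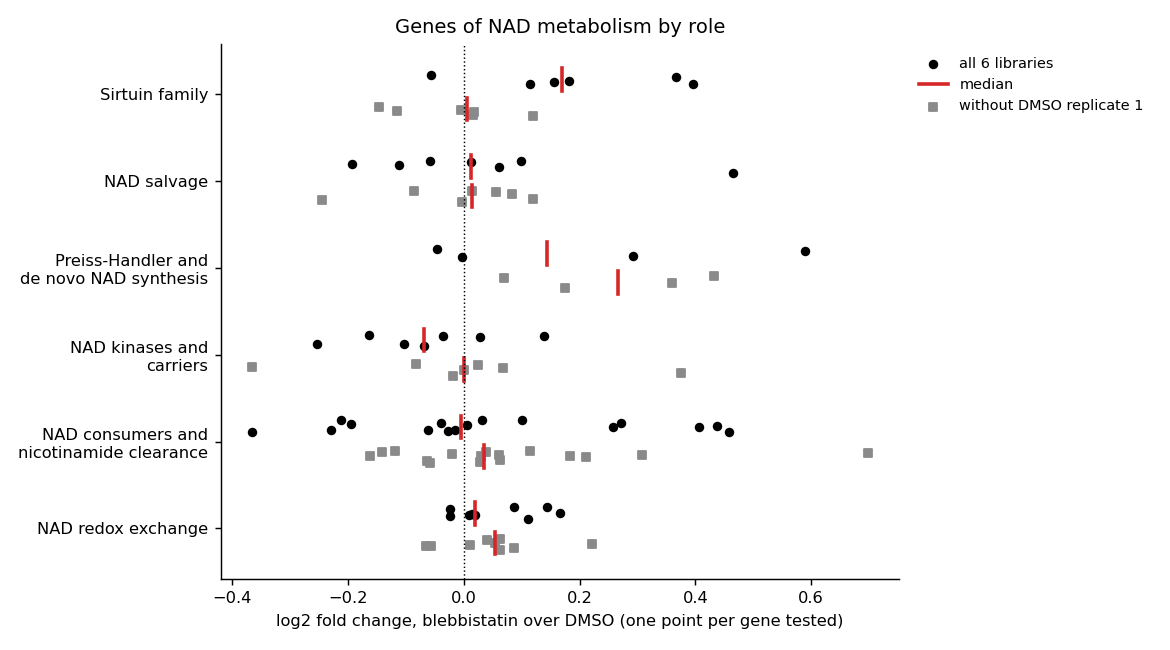
Log2 fold change of blebbistatin over DMSO for the 49 tested genes of 6 lists by role, with all 6 libraries (black circles) and without DMSO replicate 1 (grey squares); red bars are list medians. The sirtuin median was 0.17 with all libraries and 0.0057 without DMSO replicate 1.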

How the data were processed

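The authors deposited CPM for 6 RNA libraries in 1 table: each column sums to 1000000, although its name speaks of counts. Per the submitters' processing notes, HISAT2 2.1.0, StringTie 1.3.4, edgeR 3.20.9 and the rat build rn6 were used for the series, with no roles given. The annotation and strand setting are not given in the sources used here. Nearly all values above 0 (99.1 to 99.2% per library) fall within 0.02 of a whole number of steps, a step being 0.0158 to 0.0168 CPM, and the most frequent value is 4 steps, so a step is not taken as a read and the depth is unknown.

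The design named the CPM test used here: limma 3.58.1 (R 4.3.3; trend and robust settings, two-sided, no block) on log2 values of TMM-scaled CPM with 0.1 CPM added, for genes with at least 0.162 CPM (10 median steps) in at least 3 libraries, 15204 of 19425 above 0. Because of the added 0.1, fold changes of low genes come out too small. Library values and mean ± SD are CPM as deposited. Members and lists were chosen with earlier results of these data known. Named beyond the members are, per list, the 2 genes with the lowest p and any with separated groups, the tryptophan-route genes below the filter, and the nearest pattern of each member. In RefSeq, Sirt2 overlaps 1 protein-coding gene, Nmnat1 a pseudogene and Sirt4 2 small RNA genes, so their counting is uncertain. The steps were tested on simulated data with independent noise per gene and library. No simulated library stood apart as DMSO replicate 1 does, so that case was not tested. Alternatives covered scaling, filter, pseudocount, prior, replicate block and left-out libraries.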

Additional observations from a re-analysis of the deposited data

How the results depend on the processing

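The members called numbered 0 under each of the 14 alternatives run, as did the NAD list genes called; at an unadjusted p under 0.05, limma gave 0 members in each and up to 4 NAD list genes. The 3 genes called over the whole table became 2 to 6, with 6 without DMSO replicate 1 and 6 without DMSO replicate 3; with the replicate block they numbered 2. Of 72 fold changes of single members under settings that keep all libraries, 72 neither changed sign nor passed the threshold. The filters, the prior and the replicate block cannot alter a fold change, so under these the sign was fixed in advance. Only the scaling and pseudocount settings could have moved it. Of 54 with a library left out, 47 did neither and 7 changed sign: Sirt2 ran from -0.115 to 0.00649, Sirt4 from -0.125 to 0.382, Sirt5 from -0.00399 to 0.264, Sirt7 from -0.147 to 0.270, Nampt from -0.113 to 0.0136 and Nmnat1 from -0.0477 to 0.148. Sirt3 (0.119 to 0.545), Sirt6 (0.0153 to 0.562) and Nmnat3 (0.0565 to 0.764) kept their sign, each smallest without DMSO replicate 1. The cause was not tested. Nmrk2 enters the test without a filter and was not called, and no fold change is given because 2 controls are listed at 0. Deviations from the group means correlated at -0.29, 0.05 and -0.09 between same-numbered libraries. The highest correlation with a control of another number was 0.38, 0.21 and 0.09. DMSO replicate 1 enters the mean behind all 3 control deviations, so these values can hardly show a pairing and do not decide the question. The edgeR test was not run, because whole reads could not be recovered from the values.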

Other observations

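Low values in the table gather at multiples of 4 steps. In blebbistatin replicate 1, 426 genes were at 4 steps, beside 187 at 3 and 234 at 5, and 228 were at 8 steps, beside 101 at 7 and 144 at 9. In DMSO replicate 1 the counts were 253 at 4 steps, 120 at 3 and 139 at 5. A reading of the step as 1 read would give the libraries similar depths, and a reading of 4 steps as 1 read or read pair would give depths 4 times smaller. Which of these holds was not tested.

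Leaving out DMSO replicate 3 raised the number of genes with an unadjusted p under 0.05 in limma to 925, against 231 with all libraries and 135 to 240 with any other library left out. In that setting 4 genes of the NAD lists had an unadjusted p under 0.05, namely Afmid (log2 fold change 0.91), Bst1 (0.72), Parp16 (0.55) and Tnks2 (-0.52), and all had a limma adjusted p of 0.596. Without DMSO replicate 1 the list gene with an unadjusted p under 0.05 was Nadsyn1 (0.43 ± 0.17, SE; limma adjusted p = 1.00). It was at 13.5, 11.2 and 11.7 CPM with blebbistatin, against 11.0, 7.98 and 10.1 CPM with DMSO. The groups do not overlap in these deposited values, and they overlap after the scaling. Bst1 and Tnks2 were chosen after their values were seen.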
